A study of Mus musculus with 13 samples.

Results

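Matricellular proteins are secreted proteins of the extracellular matrix that signal to cells rather than build its scaffold. The set followed here holds 8 mouse genes: Postn (periostin), Comp (cartilage oligomeric matrix protein), Tnc (tenascin C), Thbs1 and Thbs2 (thrombospondins), Spp1 (osteopontin), Sparc and Mgp (matrix Gla protein). They were found as every array probe whose gene name is one of these symbols or a synonym of one. That gave 14 probes of 41174 on the array, and all 8 genes were among the 18273 tested. Matricellular proteins bind collagens, growth factors and cell-surface integrins, and several are scarce in resting adult tissue and abundant in wounds and tumor stroma. In the mammary gland fibroblasts and myoepithelial cells are known sources of many of them, whereas osteopontin is also made by luminal epithelium and macrophages.

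RNA came from mammary organoids, multicellular epithelial fragments freed from tissue by enzymatic digestion, grown for 4 days with 2.5 nM FGF2 in every group. Tumor organoids were taken from the largest carcinoma of MMTV-PyMT mice at 12 to 16 weeks of age and cultured in 3 mg/ml collagen I from rat tail (3 mice: A, B, C) or in Matrigel (the same 3 mice). Normal organoids were taken from wild-type FVB mice, and cultured in collagen I (3 mice: A, B, C) or in Matrigel (3 mice: A, B, D). MMTV-PyMT mice carry the polyoma middle T antigen under the mouse mammary tumor virus promoter, which drives it in mammary epithelium. Matrigel is a laminin-rich basement membrane gel, and collagen I is the main fibrillar collagen of connective tissue. A letter shared within a tissue marks the same mouse, normal and tumor mice being different animals. The fragments keep the cells that stay attached through digestion, and fewer cells of a type cannot be told apart from less RNA per cell.

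Levels are log2 signals minus the 75th percentile of their own array, so that 1 unit is a doubling, and they compare arrays within a probe, not genes with each other. Differences are log2 differences from limma with a standard error (SE) after ±, and a gene was called when its Benjamini-Hochberg adjusted p over all genes tested was below 0.05. The 75th percentile of the signal lay between 691 and 812 for tumor organoids in collagen I, 383 and 570 for tumor organoids in Matrigel, 971 and 1216 for normal organoids in collagen I and 671 and 1098 for normal organoids in Matrigel. Well above background were 56.6% to 58.6% of the spots on the tumor Matrigel arrays and 62.1% to 71.4% on the others. The tumor Matrigel arrays were therefore the dimmest. Spike-in control spots lay at -0.41 to -0.024 log2 units over the 75th percentile on these arrays. They lay at -2.08 to -1.50 on the normal Matrigel, -2.19 to -2.03 on the normal collagen I and -1.76 to -1.16 on the tumor collagen I arrays. Levels and differences were not scaled to these spots. Luminal keratins Krt8 and Krt18 were well above background on all 12 arrays, as were all 8 matricellular genes.

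The probes are 60 bases long, and 5 of the 14 lie across a gap in the genome, so that they read spliced RNA. These 5 are shown whole, in lower case, 5′ to 3′, because they read processed transcripts of Comp, Tnc, Thbs1, Thbs2 and Sparc. The values of Comp and Thbs2 come from these probes, and those of Tnc, Thbs1 and Sparc are given for them beside the brightest probe. Positions are those of the array files on mouse build mm7. The Comp probe covers chr8:68837003-68837136 on the plus strand, with a gap of 74 bases. The Tnc probe covers chr4:63446910-63447673 on the minus strand (gap of 704 bases), and the Thbs1 probe covers chr2:117861824-117862004 on the plus strand (gap of 121 bases). The Thbs2 probe covers chr17:12950083-12951346 on the minus strand (gap of 1204 bases), and the Sparc probe covers chr11:55352704-55355361 on the minus strand (gap of 2598 bases).
Comp A_51_P409010: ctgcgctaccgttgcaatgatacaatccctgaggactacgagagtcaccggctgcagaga
Tnc A_52_P355169: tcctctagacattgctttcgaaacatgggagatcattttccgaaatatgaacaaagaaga
Thbs1 A_52_P337092: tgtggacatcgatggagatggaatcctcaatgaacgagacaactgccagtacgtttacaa
Thbs2 A_51_P461877: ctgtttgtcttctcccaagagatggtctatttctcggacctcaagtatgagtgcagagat
Sparc A_52_P101852: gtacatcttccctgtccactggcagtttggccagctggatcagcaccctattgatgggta

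The other probes lie in 1 block of the genome, and only their first 30 bases are shown, for the genes whose results rest on them. The Postn probe lies at chr3:54519770-54519829 and the Spp1 probe at chr5:103631152-103631211, both on the plus strand. The Mgp probe lies at chr6:136897160-136897219 on the minus strand. Tnc has 2 more probes on the minus strand, the brightest at chr4:63394034-63394094 and one at chr4:63418540-63418599 that was designed on a RIKEN cDNA annotated as tenascin C. The longest run of bases shared by probes of different members was 8 of 60, so no pair of members reads a common stretch of probe length.
Postn A_51_P489192: gattaaagtagaatccaccaaagaacatca
Mgp A_51_P426270: gccgaggagccagatattagcgcgaagaaa
Spp1 A_51_P358765: cttagtctgttgtttcatgcaaacaccgtt
Tnc A_51_P291438: cccagagaaaagaaggatttttaccaaagc
Tnc A_51_P324992: catttaacttatggggtgattgtcagggaa

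Collagen I and Matrigel separated 4 of the 8 genes in tumor organoids, where 27.9% of all genes tested were called. Postn was higher in collagen I, and Comp, Mgp and Spp1 were lower. Spp1 kept its call under 8 of 25 alternatives, and its sign turned under quantile normalization and in the authors' deposited log2 values. No member was called between the gels in normal organoids, where 0.0438% of all genes (8 genes) were called, although 2 members, Comp and Tnc, had an unadjusted p below 0.05 in limma, as 1658 genes did. Tumor and normal organoids differed for 5 members in Matrigel, against 51.6% of all genes called, with Tnc, Spp1 (again with a sign that turned under those scalings) and Mgp (a call lost under 15 of 24 alternatives) higher and Postn and Sparc lower in tumor. In collagen I they differed for 3 members, Comp, Sparc and Mgp, all lower in tumor, against 8.64% of all genes. The gel effect itself differed between the tissues for Comp and Mgp, 2 members, where 2.63% of all genes were called. The median difference over the 8 members was -0.38, 0.64, 0.70, -1.14 and -0.71 in these 5 comparisons, and over all genes tested it was -0.044, -0.0068, 0.082, 0.047 and -0.013.

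**Figure D1:**
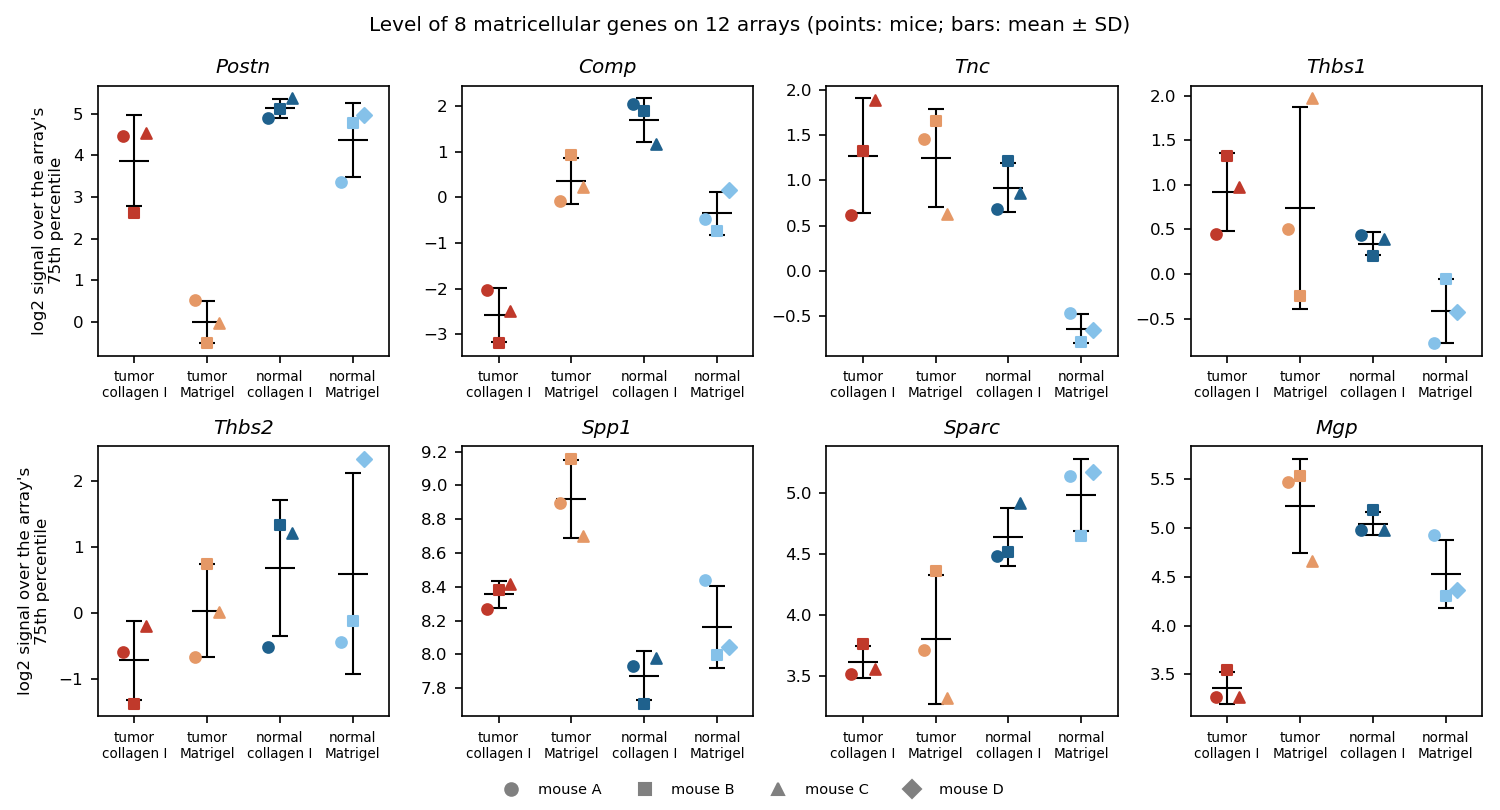
Level of each gene on its brightest probe (y axis, log2 signal over the array's 75th percentile) in tumor organoids in collagen I, tumor organoids in Matrigel, normal organoids in collagen I and normal organoids in Matrigel (x axis). Points are mice, with bars for the mean ± SD of 3 arrays; Postn is low in tumor Matrigel alone and Comp in tumor collagen I alone.

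Periostin is a fasciclin-domain protein, secreted chiefly by fibroblasts, that binds collagen I and integrins. Its level was 4.47, 2.61 and 4.54 in tumor organoids in collagen I (mice A, B and C), against 0.51, -0.51 and -0.035 in tumor organoids in Matrigel. It was 4.90, 5.11 and 5.37 in normal organoids in collagen I, against 3.36, 4.78 and 4.98 in normal Matrigel organoids (A, B, D). The 3 tumor Matrigel arrays lay below all 9 others, and mouse B was the lowest of the tumor collagen I arrays. In tumor organoids Postn was 14.8-fold higher in collagen I than in Matrigel (3.89 ± 0.55, n = 3 each, adjusted p = 0.00191 from limma), and it was higher in each of the 3 mice, by 3.96, 3.12 and 4.58. On slide 6, which held an array of each gel, it was higher by 4.51, with Comp at -2.27 and Mgp at -1.40. Between the gels in normal organoids the difference was 0.75 ± 0.55 (limma adjusted p = 0.784), with overlapping arrays. In Matrigel, Postn was 20.9-fold lower in tumor than in normal organoids (-4.38 ± 0.55, limma adjusted p = 0.000214), with a difference of -5.49 on slide 1, and in collagen I the difference was -1.25 ± 0.55 (limma adjusted p = 0.200, 95% interval -2.47 to -0.040).

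The difference of the Postn gel effects between tumor and normal organoids was 3.13 ± 0.78 and missed the threshold (limma adjusted p = 0.0573). It missed the threshold under 17 of 24 alternatives and passed under 7 (limma adjusted p 0.0183 to 0.216 over the 24). With the mouse as a random replicate block it was 3.10 and passed (limma adjusted p = 0.0272). It also passed without the lowest collagen I array, that of tumor mouse B (3.76, limma adjusted p = 0.0299), and without the lowest normal Matrigel array, that of mouse A (3.64, limma adjusted p = 0.0201). Normal Matrigel organoids of mouse A also had an array in batch 1, where Postn stood at 4.65, so that batch 2 differed from it by -1.29. For mouse B, whose RNA the labels say was hybridised in both batches, the difference was 0.26. A second probe, named A630052E07Rik in the files and listed by RefSeq as a synonym of Postn, was not well above background on any tumor Matrigel array. It was so on 2 of 3 normal Matrigel arrays, and that of mouse A, at -6.57, lay within the tumor Matrigel arrays (-7.65 to -6.39). This probe did not pass between the gels in tumor organoids (adjusted p = 0.132 in a limma fit over probes). In Matrigel the probe was at least 1.42-fold lower in tumor than in normal organoids (adjusted p = 0.0340). Such a bound takes the lowest signal still well above background as the level of the dim group.

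Comp, a pentameric thrombospondin first known from cartilage that binds fibrillar collagens, moved in opposite directions in the 2 tissues. In tumor organoids its level was -2.04, -3.20 and -2.49 in collagen I, against -0.068, 0.93 and 0.23 in Matrigel. In normal organoids it was 2.05, 1.89 and 1.16 in collagen I, against -0.47, -0.74 and 0.17 in Matrigel. The arrays of the gels did not overlap in either tissue. In tumor organoids Comp was 7.66-fold lower in collagen I than in Matrigel (-2.94 ± 0.38, adjusted p = 0.00151 from limma), with differences of -1.97, -4.13 and -2.72 in mice A, B and C. In normal organoids it was 2.05 ± 0.38 higher in collagen I, a difference that missed the threshold (limma adjusted p = 0.0856) and passed it with the mouse as a random replicate block (2.13, limma adjusted p = 0.0489). The 2 normal mice with both gels, A and B, had differences of 2.52 and 2.63.

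The gel effect on Comp in tumor organoids minus that in normal organoids was -4.99 ± 0.54 (limma adjusted p = 0.00597), ranked 3 from the bottom of 18273 genes. This call held under quantile normalization (-5.11), normexp background correction (-4.24) and the authors' deposited log2 values (-4.99), and was lost with the mouse as a fixed replicate block (-5.52, limma adjusted p = 0.105). In collagen I, Comp was 19.4-fold lower in tumor than in normal organoids (-4.28 ± 0.38, limma adjusted p = 6.44e-05). On slide 3, which held 1 array of each, the difference was -4.38. In Matrigel the tissues overlapped and differed by 0.71 ± 0.38 (limma adjusted p = 0.142).

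**Figure D2:**
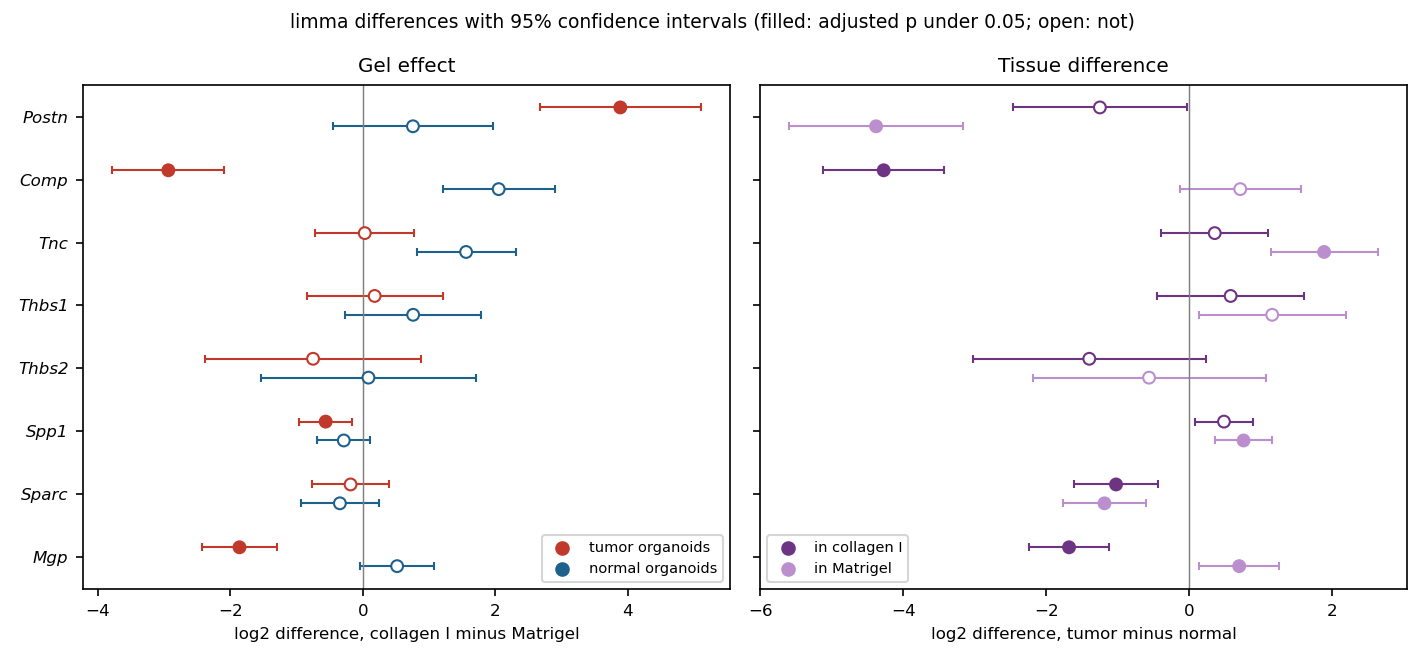
Difference between the gels (left, collagen I minus Matrigel, in tumor and in normal organoids) and between the tissues (right, tumor minus normal, in collagen I and in Matrigel) for each gene, in log2 units from limma with 95% confidence intervals. Filled points passed an adjusted p of 0.05; Comp lies at -2.94 for tumor and 2.05 for normal organoids, and Mgp at -1.86 and 0.52.

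Mgp, a vitamin K-dependent inhibitor of calcification that binds bone morphogenetic proteins, was lowest in tumor organoids in collagen I. Its level there was 3.27, 3.55 and 3.27, against 5.48, 5.54 and 4.67 in tumor organoids in Matrigel. In normal organoids it was 4.98, 5.18 and 4.98 in collagen I, against 4.93, 4.30 and 4.36 in Matrigel. The 3 tumor collagen I arrays lay below all 9 others. In tumor organoids Mgp was 3.64-fold lower in collagen I than in Matrigel (-1.86 ± 0.26, adjusted p = 0.00176 from limma), with differences of -2.21, -1.99 and -1.40 in the 3 mice, and the difference was 0.52 ± 0.26 in normal organoids (limma adjusted p = 0.606). The gel effects differed by -2.38 ± 0.36 (limma adjusted p = 0.0185). That call was lost under normexp (-2.12, limma adjusted p = 0.0761), with the mouse as a fixed replicate block (-2.33, limma adjusted p = 0.125) and without any 1 of the 3 normal collagen I arrays or the normal Matrigel array of mouse B (-2.42 to -2.27, limma adjusted p 0.0571 to 0.0717).

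Mgp was 3.21-fold lower in tumor than in normal organoids in collagen I (-1.68 ± 0.26, limma adjusted p = 0.00206), with a difference of -1.92 on slide 3. That call was lost under 1 of 24 alternatives, the slide as a fixed block (limma adjusted p = 0.116). In Matrigel Mgp was called 0.70 ± 0.26 higher in tumor organoids (limma adjusted p = 0.0408), but the arrays of the tissues overlapped and the call was lost under 15 of 24 alternatives. Among these were quantile normalization, at 0.052, and the authors' deposited log2 values, at 0.017.

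Tenascin C forms hexamers in the matrix of embryonic mesenchyme, healing wounds and tumor stroma. On its brightest probe it was 0.62, 1.32 and 1.88 in tumor organoids in collagen I, against 1.46, 1.65 and 0.63 in tumor organoids in Matrigel. It was 0.68, 1.22 and 0.87 in normal organoids in collagen I, against -0.46, -0.79 and -0.66 in normal organoids in Matrigel. The normal Matrigel arrays lay below all 9 others. In Matrigel, Tnc was 3.69-fold higher in tumor than in normal organoids (1.88 ± 0.34, limma adjusted p = 0.00132). In normal organoids it was 1.56 ± 0.34 higher in collagen I, which missed the threshold (limma adjusted p = 0.133), with differences of 1.14 and 2.01 in mice A and B. In tumor organoids the difference between the gels was 0.027 ± 0.34 (limma adjusted p = 0.960, 95% interval -0.72 to 0.78).

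The 3 Tnc probes differed from each other in tumor organoids. The spliced probe A_52_P355169 stood at -2.36, -1.49 and -1.02 in collagen I, against -0.39, -0.29 and -1.11 in Matrigel, a difference of -1.03 ± 0.45 (adjusted p = 0.112 in the limma fit over probes). The probe of the RIKEN cDNA, A_51_P324992, stood at -2.74, -3.57 and -0.79 in collagen I and was not well above background on any Matrigel array. It was at least 7.48-fold higher in collagen I in tumor organoids (fitted difference 4.06 ± 0.68, adjusted p = 0.00306). Between the tissues in Matrigel the spliced probe was 2.99 ± 0.45 higher in tumor organoids (adjusted p = 0.000527), in the direction of the brightest probe, and the probe of the RIKEN cDNA, well above background on none of 3 tumor and 2 of 3 normal Matrigel arrays, did not pass (adjusted p = 0.106). In normal organoids all 3 probes were higher in collagen I, by 1.56, 1.88 and 2.10, none past the threshold. The gel effects on the spliced probe differed by -2.91 ± 0.64 between the tissues (adjusted p = 0.0444), and on the brightest probe by -1.53 ± 0.48 (limma adjusted p = 0.0904). The fitted value for the probe of the RIKEN cDNA had the opposite sign and did not pass (adjusted p = 0.214), with the tumor Matrigel arrays not above background.

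**Figure D3:**
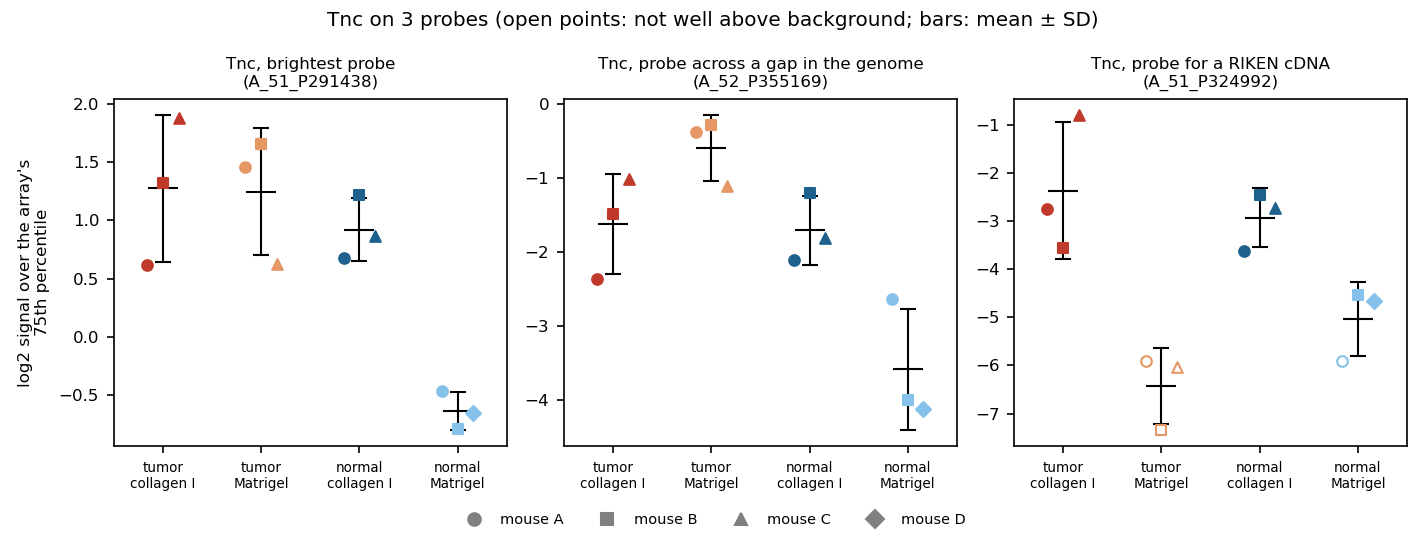
Level of Tnc (y axis, log2 signal over the array's 75th percentile) on its brightest probe, the spliced probe and the probe of a RIKEN cDNA, in the 4 groups (x axis); points are mice, open where not well above background, with bars for the mean ± SD of 3 arrays. In tumor organoids the last probe has means of -2.37 in collagen I and -6.43 in Matrigel, while the brightest has 1.27 and 1.25.

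Thrombospondins 1 and 2 are trimeric glycoproteins that bind Cd36 and Cd47 and inhibit angiogenesis, and Thbs1 also activates latent TGF-beta. Thbs1 was 0.45, 1.33 and 0.97 in tumor organoids in collagen I, against 0.50, -0.25 and 1.97 in tumor organoids in Matrigel. It was 0.44, 0.20 and 0.39 in normal organoids in collagen I, against -0.77, -0.051 and -0.43 in normal organoids in Matrigel. The tumor Matrigel arrays spread over more than 2 log2 units and spanned all collagen I arrays of both tissues. Thbs1 was 1.16 ± 0.46 higher in tumor than in normal organoids in Matrigel on this probe, which missed the threshold (limma adjusted p = 0.0573). Thbs1 passed there under 6 of 24 alternatives (limma adjusted p 0.00390 to 0.465 over the 24). Among these was the fit without the tumor Matrigel array of mouse B (1.65, limma adjusted p = 0.0122). The other Thbs1 probes, A_52_P337086 and A_52_P337092, differed by 1.62 ± 0.28 and 1.82 ± 0.31 between the tissues in Matrigel. Both passed (adjusted p = 0.000961 and 0.000990 in the limma fit over probes), with no overlap between the tissues on either. Between the gels Thbs1 differed by 0.18 ± 0.46 in tumor organoids (limma adjusted p = 0.804) and by 0.76 ± 0.46 in normal organoids (limma adjusted p = 0.715).

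Thbs2 passed no comparison. It was -0.59, -1.38 and -0.19 in tumor organoids in collagen I, against -0.67, 0.75 and 0.012 in tumor organoids in Matrigel, and -0.51, 1.34 and 1.21 in normal organoids in collagen I, against -0.44, -0.12 and 2.35 in normal organoids in Matrigel. The groups overlapped in all comparisons, and the array of normal mouse D in Matrigel was the highest of the 12. The largest difference was -1.40 ± 0.74 between tumor and normal organoids in collagen I (limma adjusted p = 0.287), whose 95% interval ran from -3.03 to 0.23.

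Sparc, a collagen-binding glycoprotein also called osteonectin, was lower in tumor organoids in both gels. Its level was 3.52, 3.76 and 3.56 in tumor organoids in collagen I, against 4.48, 4.52 and 4.92 in normal organoids in collagen I. It was 3.71, 4.36 and 3.32 in tumor organoids in Matrigel, against 5.14, 4.65 and 5.17 in normal organoids in Matrigel. No tumor array reached a normal one in either gel. Sparc was 2.28-fold lower in tumor organoids in Matrigel (-1.19 ± 0.27, limma adjusted p = 0.00401) and 2.04-fold lower in the collagen gel (-1.03 ± 0.27, limma adjusted p = 0.0374). The spliced probe gave -1.08 ± 0.25 and -1.26 ± 0.25 (adjusted p = 0.00475 and 0.0113 in the limma fit over probes). The Matrigel call was lost with the slide as a fixed block (-0.74, limma adjusted p = 0.184). The collagen I call was lost in the same fit (-0.68), with no filter on dim probes and without any 1 of the 3 normal collagen I arrays or the tumor collagen I arrays of mice A and C (-1.11 to -0.89, limma adjusted p 0.0759 to 0.156). Between the gels Sparc differed by -0.19 ± 0.27 in tumor organoids (limma adjusted p = 0.627) and by -0.35 ± 0.27 in normal organoids (limma adjusted p = 0.798).

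Osteopontin, a secreted phosphoprotein that binds integrins and Cd44, was read by 1 of the brightest probes of the array, ranked 24 by mean signal. Spp1 stood at 8.27, 8.38 and 8.42 in tumor organoids in collagen I, against 8.89, 9.16 and 8.70 in tumor organoids in Matrigel. It stood at 7.93, 7.71 and 7.98 in normal organoids in collagen I, against 8.44, 7.999 and 8.04 in normal organoids in Matrigel. By their means the groups ran, from the highest, tumor Matrigel, tumor collagen I, normal Matrigel and normal collagen I, and the 75th percentile ran the other way. Spp1 was called 0.56 ± 0.18 lower in collagen I in tumor organoids (limma adjusted p = 0.0415) and 0.76 ± 0.18 higher in tumor than in normal organoids in Matrigel (limma adjusted p = 0.00593). The call between the gels was lost with its sign kept under 15 of 25 alternatives, and its sign turned under 2.

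Both differences changed sign with the scaling. Under quantile normalization they were 0.28 and -0.28, and with the authors' deposited log2 values 0.22 and -0.27, none past the threshold. The unscaled signal of Spp1 differed by 0.13 and -0.27 log2 units in these comparisons, while the 75th percentile differed by 0.69 and -1.03. All 50 of the brightest probes moved in the direction of Spp1 in both, with medians of -0.81 and 1.01. Its direction depended on the scaling in these comparisons.

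**Figure D4:**
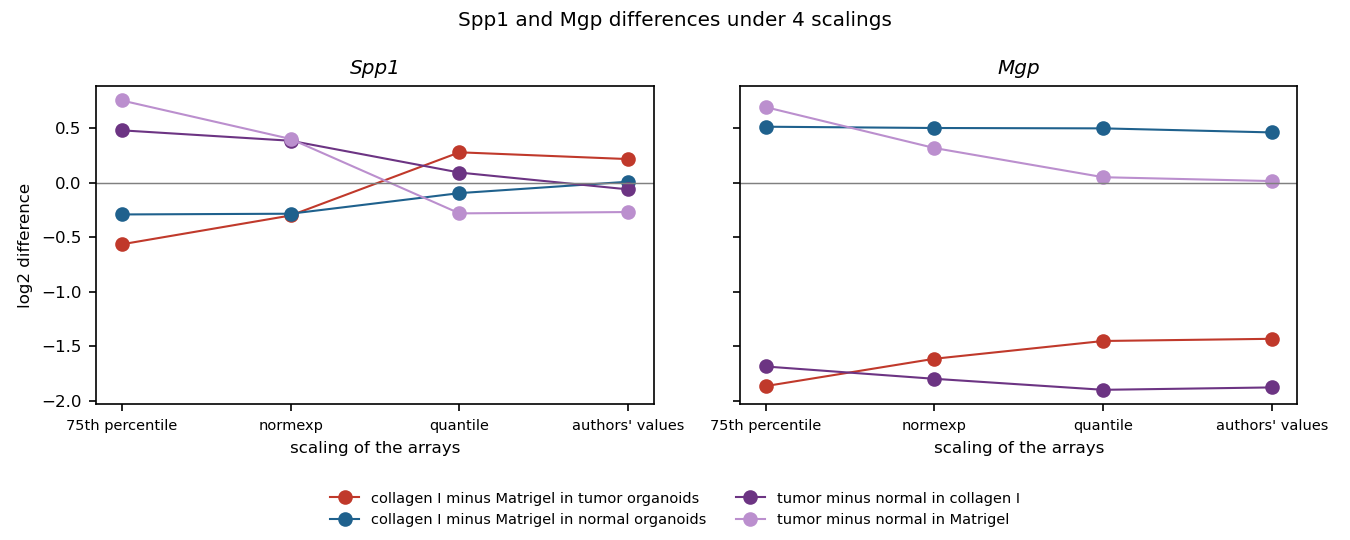
Differences of Spp1 and Mgp (y axis, log2 units) between the gels in tumor and in normal organoids and between the tissues in collagen I and in Matrigel, under 4 scalings of the arrays (x axis). Spp1 lies at 0.76 for tumor minus normal in Matrigel under the 75th percentile and at -0.28 under quantile normalization; Mgp keeps its differences near -1.86 to -1.43 between the gels in tumor organoids.

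The genes with the most similar profile to each member over the 12 arrays, of 13705 with a RefSeq symbol, were found by Pearson's r, as a description only, since the arrays fall into 4 groups. For Postn they were Zfp53, Nbeal1 and Trim23 (0.993, 0.990 and 0.985), and for Comp they were Cdo1, Avpr1a and Armc5 (0.922, 0.914 and 0.883). For Tnc they were Pla2g15, Ccn1 and Tcim (0.940, 0.935 and 0.931), and for Mgp they were Pcdhga7, Shc1 and Amotl1 (0.947, 0.915 and 0.910). Thbs1 was most like Heatr1, Prdm4 and Camsap1 (0.900, 0.883 and 0.881), and Thbs2 most like Chrna1, Cpxm1 and Lpl (0.901, 0.891 and 0.882). Sparc was most like Agpat4, Il17b and Slc27a6 (0.971, 0.964 and 0.960). Spp1 was most like Rps20, Rack1 and Fau (0.992, 0.991 and 0.990), which encode proteins of the ribosome and are themselves abundant. Over the 12 arrays, r between members ranged from -0.92 for Postn with Spp1 to 0.84 for Comp with Mgp. With each group's mean removed, r was -0.52 for Postn with Spp1 and -0.035 for Comp with Mgp.

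Over all genes, 25.9% were called lower and 25.7% higher in tumor than in normal organoids in Matrigel, and 5% and 3.64% in collagen I. Between the gels 27.9% of all genes were called in tumor organoids and 0.0438% in normal organoids. The counts of cell type markers stand beside these shares. Fibroblast and pericyte markers were lower in tumor organoids. All 10 of 10 were lower in tumor than in normal organoids in Matrigel (median -2.99) and 8 of 10 in collagen I (median -2.68), with Col3a1, a fibrillar collagen chain, at -5.16 ± 0.72 and -4.14 ± 0.72 (limma adjusted p = 0.000379 and 0.00506). Under normexp background correction these counts were 6 and 5. Between the gels in tumor organoids 1 of 10 passed, Pdgfra, a receptor of fibroblasts, at 1.33 ± 0.40 (limma adjusted p = 0.0312), a call lost under each of the other 3 scalings, with a median over the list of 1.27, and none of 10 passed in normal organoids (median 0.50). The log2 of the list's summed signal over the 75th percentile ran from 2.46 to 3.42 in tumor organoids in collagen I, 2.04 to 2.41 in tumor organoids in Matrigel, 4.95 to 6.22 in normal organoids in collagen I and 4.34 to 7.00 in normal organoids in Matrigel. Of the 10, Rgs5, a pericyte marker, and Dpt, for dermatopontin, were not well above background on any tumor Matrigel array, and the other 8 were on every tumor array. Markers of other cells moved as well. In tumor against normal organoids 5 of 6 endothelial markers were lower in Matrigel and 5 of 6 in collagen I, with Kdr at -3.44 ± 0.38 and -4.03 ± 0.38 (limma adjusted p = 0.000105 and 8.95e-05). Of 7 myoepithelial markers 3 were lower in each gel, with Myh11, smooth muscle myosin, at -7.05 ± 0.46 and -5.80 ± 0.46 (limma adjusted p = 7.58e-06 and 3.57e-05), and 1, Trp63, was higher in each, a call made under no other scaling. Of 7 luminal markers 3 were higher in tumor organoids in Matrigel, among them Epcam at 0.93 ± 0.24 (limma adjusted p = 0.00789), but none was higher and 3 were lower under quantile normalization and in the authors' deposited log2 values, and none passed in collagen I. Of 8 leukocyte markers 1 was higher and 1 lower in tumor than in normal organoids in Matrigel, and 3 were lower and none higher in collagen I. Under quantile normalization, normexp and the authors' deposited log2 values, 3, 5 and 3 were higher in Matrigel. Lower in collagen I were 2, 1 and 2. Between the gels 1 of 8 was lower in collagen I in tumor organoids, Cd68 at -2.92 ± 0.43 (limma adjusted p = 0.00211). The part of these cells in the differences of the matricellular genes was not tested.

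**Figure D5:**
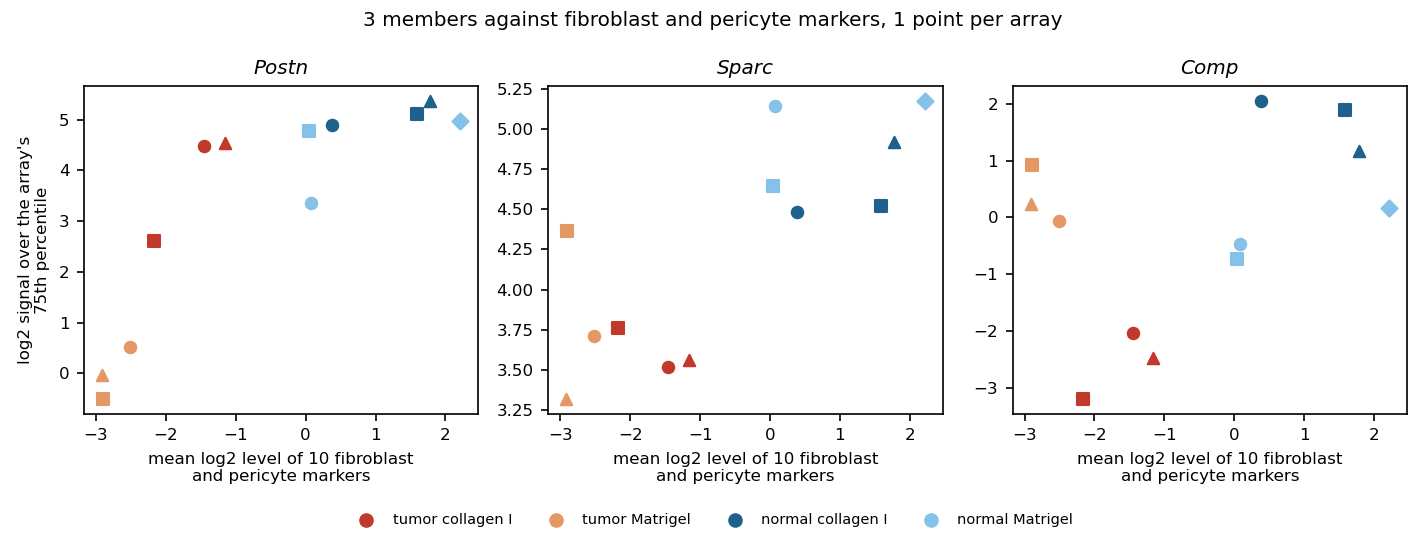
Level of Postn, Sparc and Comp (y axis, log2 signal over the array's 75th percentile) against the mean log2 level of 10 fibroblast and pericyte markers (x axis), with 1 point per array coloured by group and shaped by mouse. The tumor Matrigel arrays are lowest in both for Postn, at 0.51, -0.51 and -0.035, while for Comp the lowest arrays are those of tumor organoids in collagen I.

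Among the matrix proteins that matricellular proteins bind, 12 of 14 tested were lower in tumor than in normal organoids in Matrigel (median -2.60). In collagen I 7 of 14 were lower (median -2.14), and none was higher in either gel. Of all genes, 25.9% were called lower in Matrigel and 5% in collagen I. Of the 14, Col1a1, Col1a2, Col3a1, Dcn and Lum are also in the fibroblast list. Collagen I chains Col1a1 and Col1a2 were -2.43 ± 0.61 and -2.93 ± 0.64 in collagen I (limma adjusted p = 0.0330 and 0.0172). Between the gels in tumor organoids 2 of 14 were higher in collagen I and none lower, beside 15.8% and 12.1% of all genes. Fn1, the fibronectin gene, averaged 1.37 ± 0.56 (SD, n = 3) in collagen I and -0.041 ± 0.30 in Matrigel, a difference of 1.41 ± 0.31 (limma adjusted p = 0.00935) that passed under all 4 scalings. Fbn1, for fibrillin 1, was higher by 1.61 ± 0.41 (limma adjusted p = 0.0174), a call lost under each of the other 3 scalings, and under normexp its sign turned (-0.71).

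Of 21 other matricellular genes tested, 4 were higher and 2 lower in collagen I in tumor organoids, and none passed in normal organoids, where 27.9% and 0.0438% of all genes were called. Ccn4, a CCN family gene induced by Wnt signalling, was not well above background on any tumor Matrigel array and was at least 4.47-fold higher in collagen I (adjusted p = 0.00796, limma). Thbs3, a pentameric thrombospondin, was 1.19 ± 0.19 higher (limma adjusted p = 0.00272), and Edil3, an integrin ligand, 1.86 ± 0.43 higher (limma adjusted p = 0.0117). Smoc2, a relative of Sparc, was -2.53 ± 0.55 and passed under all 4 scalings (limma adjusted p = 0.00905). Under normexp none of the 4 higher genes passed, and Ccn4 stood at -0.15. Between the tissues in Matrigel 5 were higher and 7 lower in tumor organoids (7 and 2 under normexp), where 51.6% of all genes were called. Ccn1, an integrin ligand of the CCN family whose profile was among those most like Tnc, was 2.50 ± 0.35 higher (limma adjusted p = 0.000378), and Ecm1 was 2.66 ± 0.54 higher (limma adjusted p = 0.00239). Fstl1, a secreted follistatin-like protein, was -4.13 ± 0.42 in Matrigel (limma adjusted p = 6.83e-05) and -3.21 ± 0.42 in collagen I (limma adjusted p = 0.000792), where 4 of 21 were lower and none higher, beside 8.64% of all genes called. The gel effect differed between the tissues for 1 of 21, Dmp1, a relative of osteopontin, at -2.61 ± 0.58 (limma adjusted p = 0.0470), a call made under none of the 3 other scalings.

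Receptors gave 4 higher and 4 lower of 18 between the gels in tumor organoids and none in normal organoids, beside 27.9% and 0.0438% of all genes called. Among the higher were Itgav, the integrin αv chain that binds periostin and osteopontin (0.98 ± 0.17, limma adjusted p = 0.00342), and its partners Itgb3 (1.14 ± 0.29, limma adjusted p = 0.0167) and Itgb6 (1.67 ± 0.33, limma adjusted p = 0.00647), which passed under all 4 scalings. The 4 lower ones were lost under each of the 3 other scalings. In Matrigel 7 receptors were higher and 6 lower in tumor than in normal organoids (3 and 7 under quantile normalization), beside 51.6% of all genes called, with Itgb3 at -1.67 ± 0.29 (limma adjusted p = 0.00109) and Cd47, the thrombospondin receptor, at 1.14 ± 0.21 (limma adjusted p = 0.00141). In collagen I 1 was higher, Cd47, at 1.08 ± 0.21 (limma adjusted p = 0.00891), and 3 were lower, beside 8.64% of all genes called.

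The last lists hold enzymes that process these proteins and genes of the TGF-beta and BMP axis, which several of them bind, and their counts stand beside 27.9% of all genes called between the gels in tumor organoids, 51.6% between the tissues in Matrigel and 8.64% in collagen I. Of 13 enzymes, 1 was higher and 1 lower in collagen I in tumor organoids. The higher was Lox, which crosslinks collagen, by at least 1.12-fold (limma adjusted p = 0.0178). Under normexp the Lox call was lost and its sign turned (-0.84). The lower was Tgm2, a transglutaminase that crosslinks matrix proteins, at -1.52 ± 0.24 (limma adjusted p = 0.00282), and its gel effect differed between the tissues by -1.50 ± 0.34 (limma adjusted p = 0.0485), a call made under none of the 3 other scalings. In Matrigel 2 enzymes were higher and 1 lower in tumor than in normal organoids (1 and 3 under quantile normalization). Tgm2 was also -1.57 ± 0.24 between tumor and normal organoids in collagen I (limma adjusted p = 0.00235), 1 of 4 lower and none higher. Of 20 genes of the TGF-beta and BMP axis, 3 were higher and 3 lower in collagen I in tumor organoids, with Bmp2 at 2.37 ± 0.33 (limma adjusted p = 0.00186), Bmpr1a, a BMP receptor, at 1.14 ± 0.20 (limma adjusted p = 0.00354) and Ltbp3, a latent TGF-beta binding protein, at -0.90 ± 0.15 (limma adjusted p = 0.00313). Of these Bmpr1a passed under all 4 scalings, Bmp2 was lost under normexp (0.30, limma adjusted p = 0.572), and Ltbp3 was lost under each of the other 3. In Matrigel 7 were higher and 3 lower in tumor than in normal organoids. Bmp4, a secreted BMP ligand, was 2.55 ± 0.42 higher (limma adjusted p = 0.000795). In collagen I 1 of 20 passed, Bmp6, at least 4.39-fold higher in tumor organoids (limma adjusted p = 0.0379), since it was not well above background on any normal array.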

How the data were processed

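The data are 1-colour Agilent 4x44K mouse arrays of 13 samples (14 arrays, since normal Matrigel organoids of mice A and B have an array in each of 2 batches), of which the 12 arrays of batch 2 were compared, with 3 mice in each of 4 groups. For normal Matrigel mouse B the labels name batch 1 and say that arrays of both batches were averaged. Which of its arrays is of batch 2 was inferred from the array name and from its slide, shared with normal collagen I mouse C of batch 2, and the authors' deposited log2 value of mouse B is the average of both arrays. Per the file headers, the deposited intensity values are processed signals from Agilent Feature Extraction, already background-corrected. The authors' deposited log2 values come with no stated scaling or centring, and they correlated with the array they belong to at 0.992 or more. Each array's log2 intensity was taken relative to its 75th percentile. Control spots and outlier flags were left out, spots of a probe were averaged, and the brightest probe stood for a gene. Probes had to be well above background on all arrays of at least 1 group, which left 26606 of 41174 probes and 18273 genes. Of the probes, 22951 were named through RefSeq (GRCm38.p6 table, names only). Groups were compared in 1 fit with limma 3.58.1 in R 4.3.3 (lmFit, eBayes) with Benjamini-Hochberg adjustment over all genes. An exact permutation test of 3 against 3 cannot go below 0.1. A second fit took each probe on its own.

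All 8 members are named, with the called genes of the accompanying lists given as counts and examples, and the 3 genes most like each member. The members and lists were chosen with earlier results of these data known. Letters pair gels within a tissue, since the labels give them to the same mouse. Deviations of same-mouse arrays correlated at -0.058, 0.32 and 0.42 in tumor mice A, B and C and at 0.24 and -0.24 in normal mice A and B. The mouse and the slide as blocks, other scalings, filters and left-out arrays were tried as alternatives. The number of arrays limits the precision. The pipeline was tested on simulated data.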

Additional observations from a re-analysis of the deposited data

Results flagged for a closer look

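The gel effect differed between tumor and normal organoids by a direct test for Comp and Mgp. For Comp the difference of the gel effects was -4.99 (limma adjusted p = 0.00597), with gel effects of -2.94 in tumor and 2.05 in normal organoids. For Mgp it was -2.38 (limma adjusted p = 0.0185), with gel effects of -1.86 in tumor and 0.52 in normal organoids. Groups of 3 arrays were not tested for arrays that stand apart.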

How the results depend on the processing

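Of 976 member values recomputed under the alternatives, 878 kept their direction and side of the threshold, 47 lost a call, 18 gained one and 33 changed sign. Among them are 40 values of the brightest probes, refitted among all probes, which could hardly change and all stayed the same. Between the gels in tumor organoids Postn, Comp and Mgp kept their calls under every alternative run, as did Postn and Tnc between the tissues in Matrigel and Comp in collagen I. The alternatives did not take the dimmer probes alone, and none scaled the arrays to the spike-in spots. In the limma fit over probes the second Postn probe did not pass between the gels in tumor organoids (adjusted p = 0.132). Between the tissues in Matrigel it passed (adjusted p = 0.0340), being well above background on 2 of 3 normal arrays and on no tumor array. The spliced Tnc probe also passed there (0.000527), but the Tnc probe of the RIKEN cDNA did not (0.106). The number of members called in normal organoids was 1 with the mouse or the slide as a random block. In Matrigel it was 3 under quantile normalization and with the slide as a fixed block, and in collagen I it was 1 with the slide fixed. For the difference of the gel effects it was 1 under normexp, 4 with normal Matrigel as the mean of both batches, 4 with the slide as a random or fixed block, and 1 to 3 with 1 array left out. It was 0 with the mouse as a fixed replicate block, where Comp stood at -5.52 and Mgp at -2.33 (limma adjusted p = 0.105 and 0.125). With the mouse as a random replicate block Comp passed in normal organoids (2.13) and the Postn difference of gel effects passed (3.10).

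Under quantile normalization and in the authors' values Spp1 turned to 0.28 and 0.22 (gels, tumor), -0.28 and -0.27 (tissues, Matrigel) and 0.37 and 0.21 (difference of gel effects), and in the authors' values to 0.011 (gels, normal) and -0.059 (tissues, collagen I). Sparc turned to 0.11 and 0.14 between the gels in tumor organoids under those scalings, and its difference of gel effects to -0.011 with the mean of probes and -0.11 with the mean of both batches. Thbs1 turned to -0.0037 with the mean of probes and -0.52 with the slide fixed between the gels in tumor organoids, and to -0.22 with the slide fixed between the tissues in collagen I. With the slide as a random or fixed block Tnc turned to -0.0086 and -0.086 (gels, tumor) and Thbs2 to -0.061 and -0.67 (gels, normal). With 1 array left out, values between the gels in tumor organoids ran from -0.28 to 0.35 for Tnc, -0.32 to 0.79 for Thbs1 and -0.61 to 0.095 for Sparc. Thbs2 ran from -0.44 to 0.96 between the gels in normal organoids and -1.08 to 0.31 between the tissues in Matrigel, and the difference of gel effects ran from -1.08 to 0.033 for Thbs1 and -0.35 to 0.44 for Sparc. The causes were not tested.

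Over all genes, 5090, 8, 9433, 1579 and 481 were called in the 5 comparisons, and 1251 to 7737, 0 to 71, 7719 to 13840, 192 to 2065 and 0 to 2227 under the alternatives other than left-out arrays. Normexp moved the share of higher calls to 39.2% from 56.6% between the gels in tumor organoids, and to 77.1% from 49.8% between the tissues in Matrigel. It moved it to 56.5% from 42.2% in collagen I and to 10% from 50.9% for the difference of gel effects, with medians over all genes of -0.32, 0.45, 0.16 and -0.29. The mouse as a fixed block was not run between the tissues, whose mice differ.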

Other observations

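Normal Matrigel organoids of mice A and B have arrays in both batches, the batch of each mouse B array being inferred from array names and a shared slide. Apart from Postn in mouse A, which differed by -1.29, the repeats of the 8 genes differed by -0.62 to 0.68 log2 units (batch 2 minus batch 1). Cd68, a macrophage marker, was the leukocyte marker whose gel effect differed between tumor and normal organoids (-4.07 ± 0.61, limma adjusted p = 0.0183), and it was 4.16 ± 0.43 higher in tumor than in normal organoids in Matrigel (limma adjusted p = 7.90e-05). No other leukocyte marker was called higher in that comparison. Under quantile normalization, normexp and the authors' deposited log2 values, 3, 5 and 3 were called higher. Lyz2 was -2.37 ± 0.82 there in the main fit (limma adjusted p = 0.0320), and Adgre1 did not pass (-1.57, limma adjusted p = 0.126).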
